A study of Rattus norvegicus with 33 samples.

Results

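The amino acid transporter families were taken as every gene whose symbol begins with Slc1a, Slc3a, Slc6a, Slc7a, Slc36a, Slc38a or Slc43a, 7 families of solute carriers, which gave 61 of the 18166 genes with a named probe set on the array. Each of the 61 had 1 probe set, and all 61 were found under their gene identifier in RefSeq. Values are log2 array intensities, so a log2 difference of 1 is a 2-fold change. The strength of a signal depends on the probes as well as on the RNA, so levels are compared within a gene and not between genes.

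Mammary gland RNA came from female Sprague-Dawley rats, an outbred strain, all of which were vehicle controls gavaged with olive oil in a larger study of environmental chemicals. The fifth caudal glands were taken before puberty at postnatal day 21 (n = 10, pups still with their dams), around the onset of puberty at day 42 (n = 5), in puberty at day 63 (n = 5), at the end of lactation, lactation day 28 and postnatal day 146 (n = 3), and at day 181 from parous rats (n = 5) and from nulliparous rats of the same age (n = 5). The series record gives these numbers, whereas the sample notes speak of 5 animals per stage, so that p-values are too small if the 10 youngest arrays came from fewer rats. Rats of 1 stage were killed on 1 day at random points of the estrous cycle, and stage and day cannot be told apart. The labels assign the 33 arrays to 3 batches: batch 1 had arrays of 5 stages, all but lactation, batch 2 held all 3 lactation arrays and part of the groups of days 21, 42 and 63, and batch 3 held 2 parous and 2 nulliparous arrays, extracted with another kit that the labels say was used for fattier adult glands.

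Amino acids cross the plasma membrane on carriers that differ in substrate and in driving force. Sodium-coupled carriers (Slc1, Slc6, Slc38) concentrate amino acids in the cell, exchangers such as Slc7a5 trade one amino acid for another, and many Slc7 light chains reach the membrane only when bound to a heavy chain, Slc3a2 or Slc3a1. In the lactating gland, secretory epithelium draws amino acids from blood for milk protein, and several of these genes belong to the transcriptional response to amino acid shortage that the factor ATF4 drives.

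Of the 61 genes, 33 had a mean over all arrays above 7.645, the median of all values of named probe sets. By stage mean, 32 were above it at day 21, 34 at day 42, 33 at day 63, 27 in lactating glands, 30 in parous glands and 29 in nulliparous glands. The 9 genes above it in every array were Slc3a2, Slc38a2, Slc38a7, Slc38a9, Slc6a6, Slc6a8, Slc7a8, Slc1a3 and Slc43a3. Another 23 genes were above it in no array, among them the glycine and proline carriers Slc6a5 and Slc6a7 of neurons and the kidney pair Slc3a1 and Slc7a9. The array table has no detection calls, so it was not established which of these were expressed.

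A model with terms for stage and batch was fitted to every gene (limma), and a gene was called where its Benjamini-Hochberg adjusted p over all 18166 genes was under 0.05; "rose" and "fell" below are used of such genes alone. Between the 6 stages, 37 of the 61 genes differed by the F test of this model, beside 46.3% of all genes. Lactating over pubertal glands had the most calls, with 11 genes higher and 18 lower. Day 42 over day 21 had 12 higher and 11 lower, and parous over lactating glands 10 higher and 11 lower. Nulliparous over pubertal glands had 1 in each direction. Day 63 over day 42 and parous over nulliparous glands had 0 calls among the 61. At an unadjusted p under 0.05 they had 11 and 2 of the 61 (18% and 3.28%), beside 10.9% and 6.04% of all genes. Comparisons that share a group share its arrays, so their values are not independent.

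**Figure D1:**
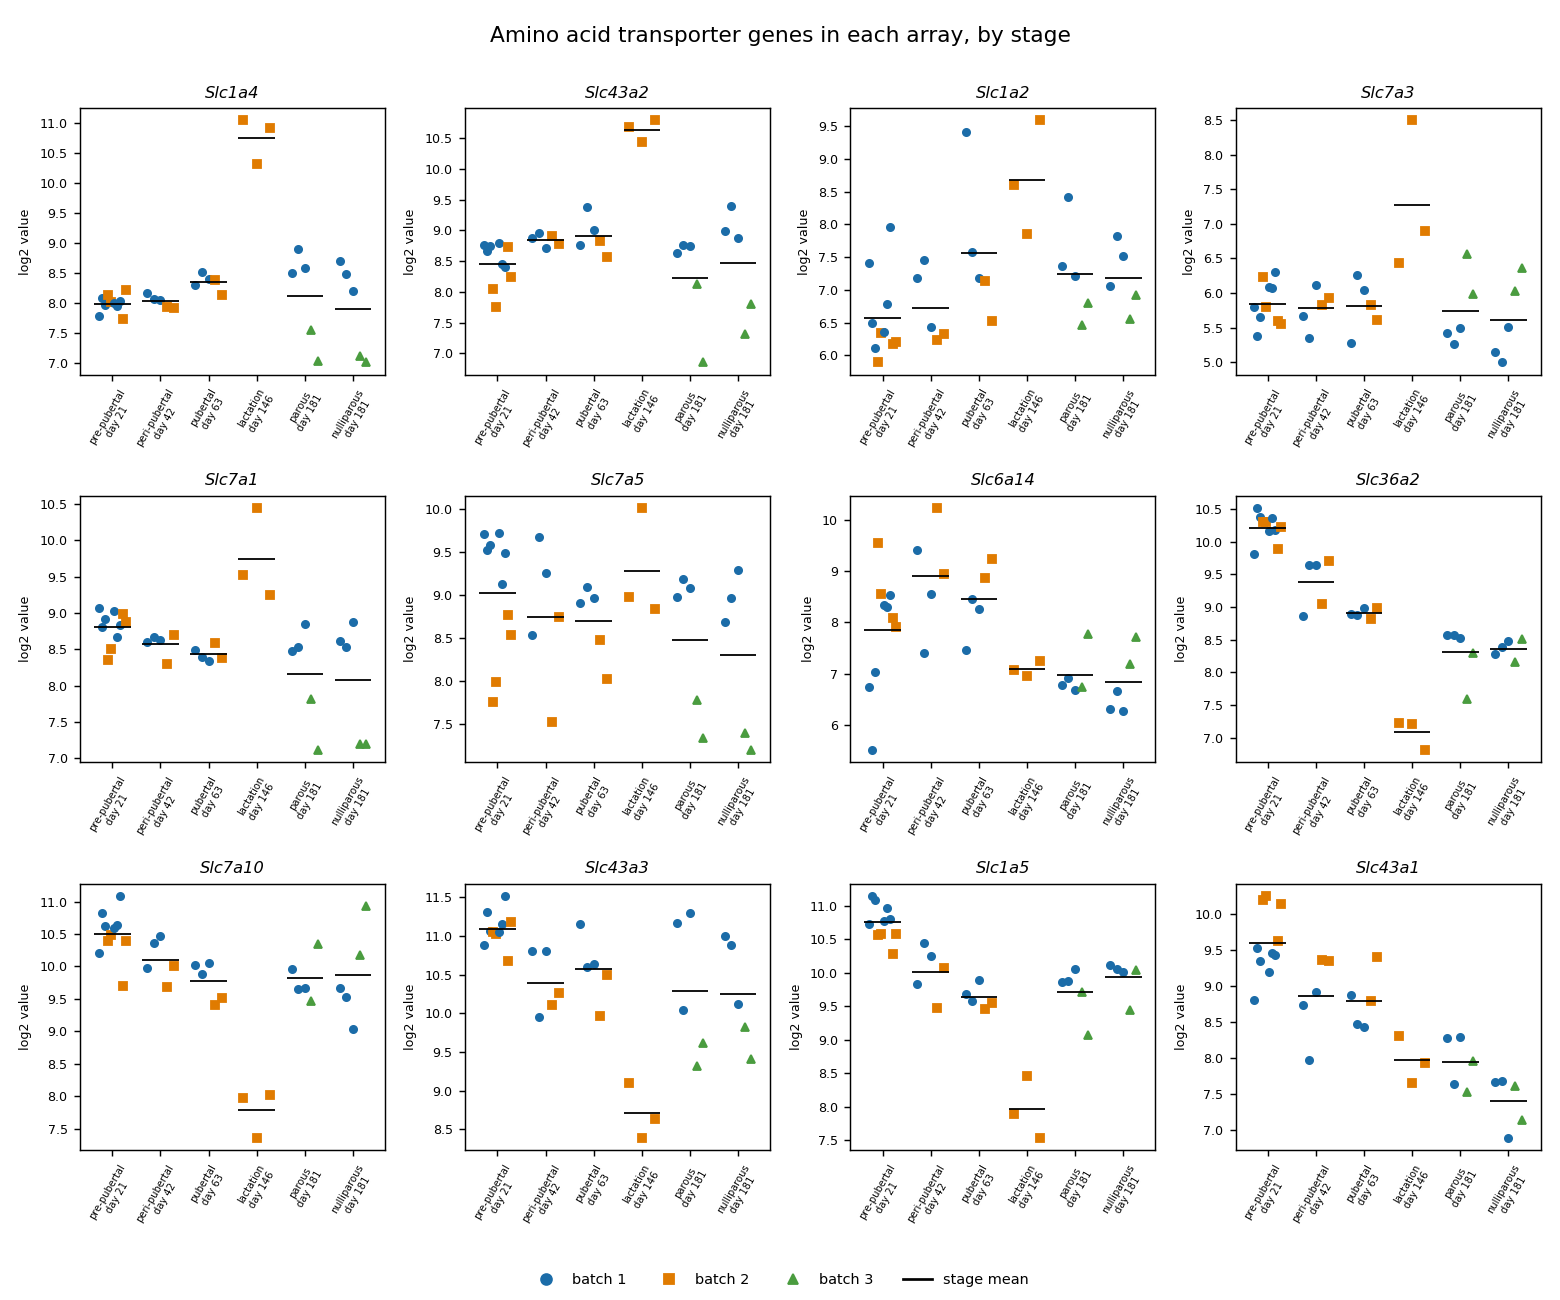
Log2 values of 12 transporter genes (vertical axes, 1 panel per gene, each with its own scale) in each of the 33 arrays, by stage in order of age. Circles, squares and triangles mark batches 1, 2 and 3, and lines are stage means. Slc1a4 and Slc43a2 lie above all other arrays in the 3 lactating glands, Slc36a2, Slc7a10, Slc43a3 and Slc1a5 lie below them, and the batch 3 arrays of Slc1a4, Slc7a1 and Slc7a5 lie below the batch 1 arrays of the same stage.

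Marker genes checked the labelled tissue and what else it held. Milk protein markers averaged 13.003 to 13.075 in the lactating arrays and at most 12.201 in any other stage's, and luminal epithelium markers averaged 6.436 to 9.484 at day 21 and at least 9.246 at every later stage. In 5 arrays (day 21 replicate 10, day 42 replicates 1 and 4, lactating replicate 3 and nulliparous replicate 5) the mean of 8 skeletal muscle markers was 9.033 to 9.853, above a cut of 9. The cut was set after seeing the data. Below it, day 21 replicate 7 had 8.414 and lactating replicate 1 had 8.288, while pubertal arrays had 6.82 to 6.988. The arrays kept were thus not all alike in muscle markers. Without the 5 arrays above the cut, 22 of the 61 genes were called in lactating over pubertal glands, 15 in parous over lactating glands, 13 at day 42 over day 21 and 4 at day 63 over day 42. The shares of all genes called in that refit are not given here, so these counts cannot be read as particular to the 61.

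Many of these genes differed between batches. The mean of 12 white adipocyte markers was 9.921 and 10.413 in the parous arrays of batch 3, against 10.271 to 10.602 in those of batch 1. It was 10.546 and 10.822 in the nulliparous arrays of batch 3, against 10.042 to 10.638 in those of batch 1. The batch 3 values were read through the other kit, so they cannot show whether those glands were fattier. The kit and the choice of glands for it cannot be told apart. Against batch 1, batch 2 was higher for 3 genes and lower for 15 of the 61, while 42.2% of all genes passed the same test. Batch 3, the other extraction kit, was higher for 8 and lower for 25 of the 61, while 60.4% of all genes passed. The median size of the batch 3 term was 0.48 on the log2 scale over the 61 genes and 0.426 over all genes. Slc7a2 stood lower by a log2 difference of -2.32 in batch 3, Slc36a1 by -1.70, Slc7a5 by -1.61, Slc1a4 by -1.39 and Slc38a2 by -1.38. Slc7a6os, which is named for lying opposite Slc7a6 and is no transporter, stood higher by 2.09.

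The promoters of 3 genes that rose in lactating glands, Slc1a4, Slc7a1 and Slc7a5, are shown because these genes are textbook targets of the amino acid response. They were picked among the genes that rose. Among other transporters known as such targets, Slc1a5 fell, and Slc38a2 and Slc7a11 did not pass. Slc3a2, also such a target, was called higher but stood lower without a batch term (values of each below). The sequences are from RefSeq on the rat build GRCr8, 5′ to 3′ on the gene's strand, from 250 bases before to 50 bases after the annotated start. Capitals mark a match to TGATGNAA on either strand, the core to which ATF4 and C/EBP factors bind.
Slc1a4, chr14:98761513-98761812, minus strand: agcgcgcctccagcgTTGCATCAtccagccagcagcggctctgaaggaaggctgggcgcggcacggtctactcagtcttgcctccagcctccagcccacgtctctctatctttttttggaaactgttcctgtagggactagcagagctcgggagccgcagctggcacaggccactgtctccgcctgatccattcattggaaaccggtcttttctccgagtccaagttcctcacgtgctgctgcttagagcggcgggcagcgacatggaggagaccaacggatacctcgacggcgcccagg
Slc7a1, chr12:11664238-11664537, plus strand: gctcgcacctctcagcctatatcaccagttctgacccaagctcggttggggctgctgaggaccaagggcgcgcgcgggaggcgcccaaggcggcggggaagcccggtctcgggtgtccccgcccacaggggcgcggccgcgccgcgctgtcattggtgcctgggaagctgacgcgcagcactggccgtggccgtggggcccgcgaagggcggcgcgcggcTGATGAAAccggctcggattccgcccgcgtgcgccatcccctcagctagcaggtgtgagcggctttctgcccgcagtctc
Slc7a5, chr19:66872363-66872662, minus strand: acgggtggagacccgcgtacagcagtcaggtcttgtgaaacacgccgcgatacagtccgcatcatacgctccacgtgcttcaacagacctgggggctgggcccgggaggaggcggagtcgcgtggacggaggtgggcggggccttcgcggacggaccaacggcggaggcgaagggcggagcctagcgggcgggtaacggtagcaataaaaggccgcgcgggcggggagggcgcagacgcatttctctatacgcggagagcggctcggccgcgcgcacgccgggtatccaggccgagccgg
The Slc1a4 match, TTGCATCA, lay on the opposite strand at positions -235 to -228 from the start, and the Slc7a1 match, TGATGAAA, at -30 to -23. The Slc7a5 window held none. TGATGNAA occurred in 1048 of 27457 rat promoters of this length (3.82%) and in 3 of the 46 transporter genes with a promoter in the table, the third being Slc38a1. TTCNNNGAA, the core letters of sites for STAT factors, occurred in 2382 promoters (8.68%) and in 1 of the 46, Slc36a4. Among genes with a promoter that were called in lactating over pubertal glands, TGATGNAA was in 2 of the 10 that rose and in 0 of the 11 that fell. A match describes letters in a window and not a bound site.

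The comparison of lactating with pubertal glands asked how the secreting gland differs from the virgin gland in puberty at day 63. The neutral amino acid exchanger Slc1a4, the branched-chain and phenylalanine carrier Slc43a2, the cationic carriers Slc7a1 and Slc7a3 and the large neutral exchanger Slc7a5 rose. Slc1a5, the glutamine exchanger closest to Slc1a4, fell, as did Slc43a1 and Slc43a3 of the Slc43 family and the carriers Slc36a2, Slc7a10 and Slc6a14. Set against nulliparous in place of pubertal glands, the differences of Slc43a1 and Slc6a14 did not pass. No batch held both lactating and nulliparous glands, so that comparison, here and below, runs through the stages they share batches with. Over all genes, 16.2% were called higher and 12.8% lower, against 11 and 18 of the 61 here. The median log2 difference was -0.09 over the 61 and 0.01 over all genes.

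**Figure D2:**
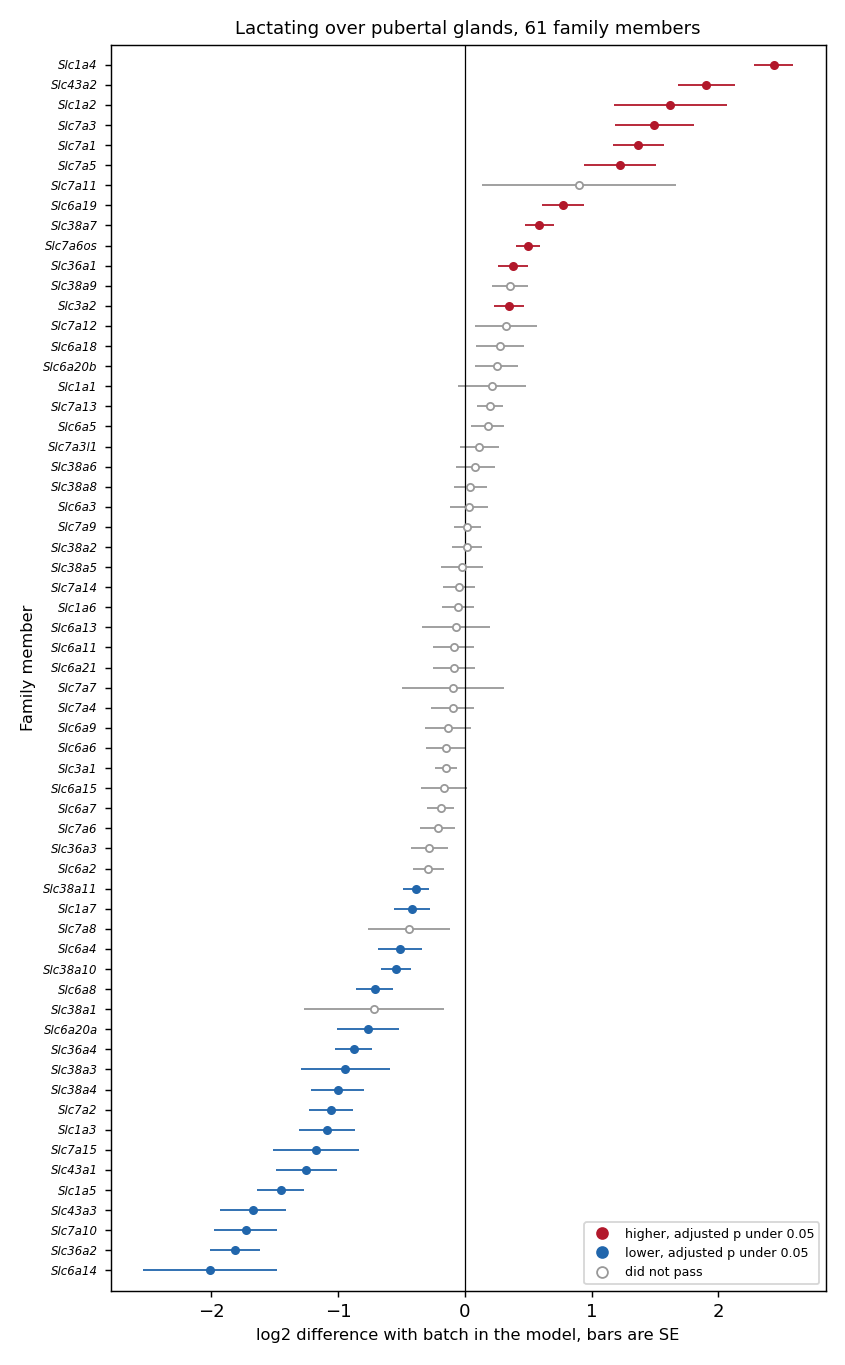
Log2 difference of lactating (n = 3) over pubertal (n = 5) glands for each of the 61 genes, with batch in the model; bars are SE. Filled red points mark the 11 genes that rose, filled blue points the 18 that fell and open points those that did not pass, with Slc1a4 at 2.44 and Slc6a14 at -2.01 at the ends.

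Slc1a4, an exchanger of alanine, serine, cysteine and threonine, had log2 values of 11.04, 10.32 and 10.91 in lactating glands, against 8.30, 8.52, 8.40, 8.38 and 8.13 in pubertal glands (here and below, the first 3 pubertal arrays are of batch 1 and the last 2, like all lactating arrays, of batch 2). Every lactating gland lay above every gland of the other 5 stages. The model gave a log2 difference of 2.44 ± 0.15 (SE), a 5.42-fold rise with an adjusted p of 9.37e-13. Its relative Slc1a5, which also takes glutamine, had 7.89, 8.46 and 7.53 in lactating glands, against 9.69, 9.58, 9.89, 9.45 and 9.54 in pubertal glands. The groups did not overlap, and Slc1a5 fell by 1.45 ± 0.19 on the log2 scale, 2.74-fold (adjusted p = 8.41e-07).

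The cationic carriers split as well. Slc7a1, the widely expressed arginine and lysine carrier, had 9.52, 10.44 and 9.25 in lactating glands, against 8.49, 8.39, 8.34, 8.59 and 8.39 in pubertal glands. It rose without overlap by 1.37 ± 0.20 (2.58-fold, adjusted p = 6.37e-06). Slc7a3, best known from neurons, had 6.43, 8.49 and 6.90 in lactating glands, against 5.28, 6.25, 6.05, 5.83 and 5.61 in pubertal glands. It rose by 1.49 ± 0.31 (adjusted p = 0.000537), and without lactating replicate 2, the highest array of both genes, Slc7a3 still rose by 0.88 (adjusted p = 0.0134). Slc7a3 was above 7.645, the median of all values of named probe sets, in that replicate alone, so its expression in the other arrays was not established. Slc7a2, a carrier of arginine known from macrophages and liver, had 8.06, 7.71 and 7.96 in lactating glands, against 9.47, 9.53, 9.18, 8.83 and 8.84 in pubertal glands. All lactating glands were lower, and Slc7a2 fell by 1.05 ± 0.17 (adjusted p = 3.35e-05), with a difference of -1.26 that did not pass without a batch term (adjusted p = 0.103). Slc7a4 and Slc7a14, the remaining 2 genes of the group, did not pass.

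Slc7a5, the light chain of the main exchanger of leucine and other large neutral amino acids, had 8.98, 10.01 and 8.84 in lactating glands, against 8.91, 9.10, 8.97, 8.49 and 8.03 in pubertal glands. The groups overlapped, with the batch 1 pubertal arrays reading higher than those of batch 2. With batch in the model Slc7a5 rose by 1.22 ± 0.29 (2.34-fold, adjusted p = 0.00177). In batch 2 alone the difference was 1.02 with an adjusted p of 0.144, and without a batch term it was 0.58 (adjusted p = 0.528). Its heavy chain Slc3a2 had 11.84, 11.68 and 11.76 in lactating glands, against 12.12, 12.18, 12.16, 11.41 and 11.62 in pubertal glands. The lactating glands thus lay above both pubertal arrays of their own batch and below all 3 of batch 1. Slc3a2 was called higher by 0.35 ± 0.12 (adjusted p = 0.0271), but the difference was 0.24 in batch 2 alone (adjusted p = 0.191) and -0.14 without a batch term. Leaving out any of pubertal replicate 4 or lactating replicates 1 or 3 also ended this call, with adjusted p-values of 0.0513, 0.0908 and 0.0618.

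None of the other light chains was called higher. Slc7a10, an exchanger of small neutral amino acids that marks white fat cells in mouse and human, had 7.98, 7.35 and 8.01 in lactating glands, against 10.03, 9.89, 10.05, 9.40 and 9.52 in pubertal glands. All lactating glands were lower by over 1, and Slc7a10 fell by 1.73 ± 0.25 (3.31-fold, adjusted p = 5.08e-06). Slc7a15, described in mouse as a carrier of aromatic amino acids, had 6.63, 6.77 and 6.38 in lactating glands, against 8.30, 7.85, 7.92, 7.92 and 7.85 in pubertal glands. It fell without overlap by 1.17 ± 0.34 (adjusted p = 0.01). The cystine and glutamate exchanger Slc7a11 had 7.01, 8.76 and 6.27 in lactating glands, against 6.45, 5.84, 5.42, 7.34 and 6.67 in pubertal glands, a difference of 0.90 ± 0.77 that did not pass (adjusted p = 0.414). Of the 10 light chains, 1 rose and 2 fell.

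All 3 genes of the Slc43 family changed, in both directions. Slc43a2, a facilitated carrier of branched-chain amino acids, phenylalanine and methionine, had 10.68, 10.43 and 10.79 in lactating glands, against 8.76, 9.39, 9.01, 8.83 and 8.57 in pubertal glands. It rose without overlap by 1.91 ± 0.22 (3.75-fold, adjusted p = 2.12e-07). Slc43a1, which carries the same substrates, had 8.31, 7.66 and 7.93 in lactating glands, against 8.88, 8.48, 8.43, 8.79 and 9.40 in pubertal glands. The groups lay close without overlap, and Slc43a1 fell by 1.25 ± 0.24 (adjusted p = 0.000215). The difference was -0.83 without a batch term (adjusted p = 0.0732). Against nulliparous glands, with batch in the model, it was -0.21 and did not pass (adjusted p = 0.641). The raw nulliparous values of 6.89 to 7.68 lay below the lactating range or at its lower end. They are of batches 1 and 3, and batch 2 read higher than batch 1 for Slc43a1, by 0.71 in the model. Slc43a3, characterised in human cells as a purine nucleobase carrier, had 9.10, 8.39 and 8.63 in lactating glands, against 11.15, 10.60, 10.64, 9.97 and 10.49 in pubertal glands. It fell by 1.67 ± 0.26 (3.19-fold, adjusted p = 1.61e-05).

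Among the glutamate carriers, Slc1a2, the main glutamate carrier of astrocytes, had 8.60, 7.85 and 9.59 in lactating glands, against 9.42, 7.57, 7.19, 7.13 and 6.52 in pubertal glands. One pubertal array, replicate 1, lay within the lactating range and the rest below it. Slc1a2 rose by 1.62 ± 0.44 (adjusted p = 0.00664), and without lactating replicate 3 the difference was 1.17 (adjusted p = 0.072). It was 1.11 without a batch term (adjusted p = 0.151) and 1.17 without the muscle-rich arrays (adjusted p = 0.103). Slc1a3, a second astrocyte carrier, had 8.64, 8.72 and 7.76 in lactating glands, against 9.52, 9.35, 9.66, 9.08 and 9.49 in pubertal glands. It fell without overlap by 1.08 ± 0.22 (adjusted p = 0.000428), with a difference of -0.91 in batch 2 alone (adjusted p = 0.0829). Slc1a1, the widespread glutamate carrier of epithelia and neurons, had 8.60, 8.77 and 8.57 in lactating glands, against 8.48, 9.02, 8.84, 8.39 and 8.39 in pubertal glands, and did not pass (0.22 ± 0.27, adjusted p = 0.592).

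Slc38a2, the amino acid-regulated sodium-coupled carrier of neutral amino acids, had 10.97, 11.22 and 10.94 in lactating glands, against 10.96, 10.99, 11.00, 11.01 and 11.09 in pubertal glands. The groups overlapped, and its difference of 0.02 ± 0.12 did not pass (adjusted p = 0.923). Of the 11 Slc38 genes, Slc38a7, a glutamine carrier of the lysosome, rose by 0.59 ± 0.12 (adjusted p = 0.000266). Slc38a4, a carrier known from liver and placenta, had 6.73, 6.18 and 6.56 in lactating glands, against 7.23, 7.59, 7.62, 7.72 and 7.31 in pubertal glands, and fell by 1.00 ± 0.21 (adjusted p = 0.000574), but against nulliparous glands the difference was -0.48 (adjusted p = 0.159). Slc38a3, a glutamine carrier of liver and kidney, had 8.40, 7.33 and 7.65 in lactating glands, against 8.68, 9.30, 8.80, 9.04 and 8.75 in pubertal glands. It fell by 0.94 ± 0.35 (adjusted p = 0.0443), a call that ended when lactating replicate 2 (adjusted p = 0.209), lactating replicate 3 (0.116) or pubertal replicate 2, 4 or 5 (0.0709, 0.118 and 0.0764) was left out. Slc38a10 and Slc38a11 fell by 0.54 and 0.39, and the call of Slc38a11 ended without lactating replicate 3 (adjusted p = 0.0586).

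In the proton-coupled Slc36 family, Slc36a2, a glycine and proline carrier used as a marker of brown and beige fat cells, had 7.22, 7.22 and 6.81 in lactating glands, against 8.89, 8.89, 8.98, 8.82 and 8.99 in pubertal glands. Neither group spread widely and they did not overlap, and Slc36a2 fell by 1.81 ± 0.20 (3.51-fold, adjusted p = 4.37e-08). Slc36a4, a tryptophan and proline carrier, fell by 0.88 ± 0.14 (adjusted p = 3.07e-05). Slc36a1, which exports amino acids from the lysosome, had 8.97, 8.72 and 8.76 in lactating glands, against 8.80, 9.09, 8.90, 8.51 and 8.34 in pubertal glands. It was called higher by 0.38 ± 0.12 (adjusted p = 0.016) although the groups overlapped, and the call ended without lactating replicate 1 (adjusted p = 0.0898) or pubertal replicate 5 (0.0511). The difference was 0.09 without a batch term (adjusted p = 0.916), and against nulliparous glands it was 0.27 (adjusted p = 0.167).

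Of the 7 Slc6 amino acid carriers, Slc6a14, a broad carrier of neutral and cationic amino acids known from mammary epithelium and gut, had 7.08, 6.95 and 7.25 in lactating glands, against 7.47, 8.45, 8.26, 8.86 and 9.23 in pubertal glands. It fell by 2.01 ± 0.53 (4.03-fold, adjusted p = 0.00463), with a difference of -1.36 without a batch term (adjusted p = 0.133). Nulliparous glands, of batches 1 and 3, had 6.32, 6.67, 6.27, 7.18 and 7.71, which spanned the raw lactating values, all of batch 2. Batch 2 read higher than batch 1 for Slc6a14, by 1.085 in the model, so these raw values cannot be compared directly. With batch in the model, the difference from nulliparous glands was -0.52 and did not pass (adjusted p = 0.589). Slc6a19, the neutral amino acid carrier of gut and kidney, had 7.51, 6.76 and 6.48 in lactating glands, against 6.30, 6.24, 6.28, 6.05 and 5.91 in pubertal glands. It rose by 0.77 ± 0.16 (adjusted p = 0.00066), or by 0.48 without lactating replicate 1, its highest array (adjusted p = 0.0141). Slc6a19 was above 7.645, the median of all values of named probe sets, in no array, so its expression was not established. The taurine carrier Slc6a6 had 10.35, 9.57 and 10.03 in lactating glands, against 10.30, 10.51, 10.49, 10.06 and 10.35 in pubertal glands, and did not pass (-0.15 ± 0.16, adjusted p = 0.522). The creatine carrier Slc6a8 fell by 0.71 ± 0.15 (adjusted p = 0.00054). Slc6a20a, a proline carrier, fell by 0.76, the serotonin carrier Slc6a4 by 0.51 and the retinal glutamate carrier Slc1a7 by 0.42, and each of these 3 calls ended when 1 array was left out: Slc6a20a without lactating replicate 1, lactating replicate 3 or pubertal replicate 5 (adjusted p = 0.0531, 0.0602 and 0.0532), Slc6a4 without lactating replicate 2, lactating replicate 3 or pubertal replicate 4 (0.0726, 0.16 and 0.0617), and Slc1a7 without lactating replicate 1, lactating replicate 3 or pubertal replicate 4 (0.104, 0.0642 and 0.109). Slc7a6os rose by 0.50 ± 0.10 (adjusted p = 0.000224).

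Of the 29 calls, 21 stayed past the threshold whichever single array was left out, 8 higher and 13 lower. In batch 2 alone, with 3 lactating and 2 pubertal arrays, 22 passed and all 29 kept their direction. With nulliparous glands, which share no batch with lactating glands, in place of pubertal ones, 21 of the 29 passed and all kept their direction. The 8 that did not pass were Slc43a1, Slc6a14, Slc38a4, Slc36a1, Slc6a20a, Slc6a4, Slc1a7 and Slc38a11. Without a batch term 17 passed, and the 12 that did not were Slc7a5, Slc3a2, Slc36a1, Slc1a2 and Slc7a6os of those that rose and Slc43a1, Slc6a14, Slc7a2, Slc36a4, Slc38a3, Slc38a10 and Slc6a4 of those that fell. Marker levels differed between the same groups: the mean of 12 white adipocyte markers was 9.405 to 9.688 in lactating glands and 10.34 to 10.692 in pubertal glands, with 10 markers lower and 0 higher. The mean of 15 luminal epithelium markers was 10.315 to 11.016 in lactating glands and 9.5 to 10 in pubertal glands, with 8 higher and 0 lower. With the luminal mean as a covariate 27 of the 29 calls held. Every lactating array lay above all other arrays for that mean, so this refit cannot tell luminal content and stage apart. The part of the adipocyte markers in these differences was not tested. Of 8 Schwann cell and nerve markers 1 was higher and 3 were lower, and of 8 endothelial markers 2 were lower. In bulk tissue, fewer cells of a type and less RNA per cell cannot be told apart.

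Other genes that handle amino acids were described by 5 lists drawn up from general knowledge. Of 19 measured aminoacyl-tRNA synthetases of the cytosol, which load amino acids onto tRNA, 13 rose and 0 fell in lactating over pubertal glands, with a median log2 difference of 0.48. Iars1 for isoleucine rose by 0.95 ± 0.14 (adjusted p = 4.84e-06) and Aars1 for alanine by 0.86 ± 0.14. Of 22 genes of the ATF4 response, 6 rose and 2 fell. Atf4 itself rose by 0.61 ± 0.10 and the stress protein gene Nupr1 by 1.79 ± 0.16, while the mitochondrial folate enzyme gene Aldh1l2 fell by 1.76 ± 0.38. Of 24 genes of amino acid sensing upstream of the growth kinase mTORC1, 8 rose and 2 fell. The arginine sensor gene Castor1 was lower by a log2 difference of -0.80 ± 0.19, and its relative Castor2 was higher by 0.86 ± 0.14.

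Among 20 other amino acid and peptide carriers, 6 rose and 1 fell. Slc15a1, the oligopeptide carrier of the gut, averaged 7.92 in lactating glands and 5.25 in pubertal glands and rose by 2.65 ± 0.13 (adjusted p = 6.15e-15). The lysosomal carriers Slc66a1, of cationic amino acids, and Ctns, of cystine, rose by 1.08 ± 0.15 and 0.76 ± 0.16. Slc16a10, a carrier of aromatic amino acids, fell by 0.71 ± 0.21. Of 18 enzymes of branched-chain amino acids, glutamine, glutamate, proline and arginine, 3 rose and 4 fell. Arg2, the mitochondrial arginase that turns arginine into ornithine, averaged 10.82 in lactating glands and 7.47 in pubertal glands and rose by 3.53 ± 0.33 (adjusted p = 4.71e-09). Prodh, which degrades proline, fell by 1.54 ± 0.27, and Glud1, glutamate dehydrogenase, by 0.61 ± 0.09.

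Parous glands, taken at a later age after lactation had ended, were set against lactating glands to follow the return from secretion. No batch held both groups, so this comparison runs through the stages they share batches with, and the raw arrays and the fitted differences can disagree. Over all genes, 8.24% were called higher and 13.4% lower, against 10 and 11 of the 61 here. The median log2 difference was 0.04 over the 61 and -0.02 over all genes.

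Slc43a2 had 8.63, 8.76, 8.74, 8.12 and 6.85 in parous glands, against 10.68, 10.43 and 10.79 in lactating glands (the first 3 parous arrays are of batch 1 and the last 2 of batch 3). Slc1a4 had 8.51, 8.90, 8.58, 7.55 and 7.03 in parous glands, against 11.04, 10.32 and 10.91 in lactating glands. Neither gene overlapped between the groups, with log2 differences of -2.17 ± 0.26 (adjusted p = 6.12e-07) and -2.13 ± 0.18 (adjusted p = 7.93e-10). Slc7a1 had 8.48, 8.54, 8.85, 7.82 and 7.11 in parous glands, below all lactating glands, and fell by 1.17 ± 0.23 (adjusted p = 0.000462). Slc7a3 had 5.42, 5.27, 5.49, 6.56 and 5.99 in parous glands, where replicate 4 lay within the lactating range, and fell by 1.94 ± 0.36 (adjusted p = 0.000228). Slc7a5 had 8.98, 9.19, 9.09, 7.78 and 7.34 in parous glands and overlapped with the lactating range. It fell by 1.23 ± 0.33 (adjusted p = 0.0076), with differences of -0.87 without lactating replicate 2 (adjusted p = 0.07) and -0.80 without a batch term (adjusted p = 0.29). Slc3a2 had 12.28, 12.02, 12.10, 11.18 and 11.17 in parous glands and was called lower by a log2 difference of -0.46 ± 0.14 (adjusted p = 0.0141), although the 3 batch 1 arrays lay above every lactating array. Its difference without a batch term was -0.01 (adjusted p = 0.99).

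Slc1a2 had 7.36, 8.41, 7.21, 6.45 and 6.79 in parous glands and fell by 1.92 ± 0.51 (adjusted p = 0.00714), or by 1.47 without lactating replicate 3 (adjusted p = 0.0536). Slc1a1 had 8.07, 8.09, 8.27, 7.47 and 7.86 in parous glands, below the lactating glands, and fell by 0.93 ± 0.31 (adjusted p = 0.0304), a call that ended without lactating replicate 2 (adjusted p = 0.0816). The remaining falls were those of Slc6a19 by 0.82, or by 0.52 without lactating replicate 1 (adjusted p = 0.0216), of Slc38a7 by 0.58 and of Slc7a6os by 0.48. Without a batch term Slc7a6os differed by 0.03, in the other direction.

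In the other direction, Slc43a3 had 11.17, 10.05, 11.30, 9.32 and 9.62 in parous glands, above all lactating glands, and rose by 1.75 ± 0.30 (adjusted p = 0.000102). Slc1a5 had 9.86, 9.88, 10.06, 9.71 and 9.07 in parous glands and rose without overlap by 1.57 ± 0.22 (adjusted p = 4.96e-06). Slc36a2, with 8.58, 8.58, 8.53, 7.60 and 8.30, and Slc7a10, with 9.97, 9.65, 9.66, 9.47 and 10.35 in parous glands, each rose by 1.33, with SEs of 0.23 and 0.29. All of these parous arrays lay above the lactating ones. Slc7a15 had 8.85, 8.32, 8.77, 7.40 and 8.02 in parous glands and rose without overlap by 1.58 ± 0.39 (adjusted p = 0.00423). Slc7a2 had 9.14, 9.39, 9.18, 7.04 and 6.85 in parous glands, so that batch 1 arrays lay above and batch 3 arrays below the lactating range, and was called higher by 0.99 ± 0.20 (adjusted p = 0.000595). This became 0.41 without a batch term (adjusted p = 0.611).

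Slc38a3 had 8.97, 10.43, 8.45, 8.23 and 8.29 in parous glands and rose by 1.23 ± 0.41 (adjusted p = 0.0288). This call ended without parous replicate 2, its highest array (0.83, adjusted p = 0.114), or without lactating replicate 2 or 3 (adjusted p = 0.122 and 0.0721). Slc6a6 had 11.12, 10.88, 10.91, 10.08 and 10.51 in parous glands, of which replicate 4 lay within the lactating range. It rose by 0.64 ± 0.18 (adjusted p = 0.0104), and by 0.43 without lactating replicate 2 (adjusted p = 0.0924). Slc6a8 rose by 0.59 and Slc36a4 by 0.56, calls that ended without lactating replicate 2 (adjusted p = 0.0613) and lactating replicate 3 (0.0821). For Slc36a4 the difference was -0.12 without a batch term.

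Of the 21 calls, 14 stayed past the threshold whichever array was left out. Without a batch term 13 passed, and the 8 that did not were Slc7a2, Slc7a5, Slc3a2, Slc1a1, Slc38a3, Slc6a8, Slc36a4 and Slc7a6os. Beside them, 6 of the 12 white adipocyte markers were called higher and 0 lower in parous glands, where their mean was 9.921 to 10.602 against 9.405 to 9.688 in lactating glands. Of the 15 luminal markers 0 were called higher and 9 lower, with means of 9.258 to 9.815 in parous and 10.315 to 11.016 in lactating glands. Called higher, with 0 lower, were 2 of 7 B cell, 2 of 6 plasma cell, 2 of 8 Schwann cell and nerve and 1 of 8 endothelial markers. Of 10 macrophage markers 2 were higher and 2 lower, and of 12 milk protein markers 4 were lower. The part of these markers in the differences was not tested. No T cell, basal epithelium or skeletal muscle marker was called. Among the related genes, 9 of 19 tRNA synthetases fell and 0 rose, Slc15a1 fell by 2.87 ± 0.15, Arg2 fell by 3.02 ± 0.39, and Prodh rose by 1.75 ± 0.31. Of the other lists, 1 gene of mTORC1 sensing was called higher and 7 lower, 2 of the ATF4 response higher and 3 lower, 2 of the other carriers higher and 5 lower, and 3 of the enzymes higher and 2 lower.

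The comparison of day 42 with day 21 spans the weeks around weaning and the onset of puberty. The cystine exchanger Slc7a11 and the glutamine carrier Slc38a1 fell most, and Slc6a14, Slc7a8 and Slc7a7 had the largest rises. Over all genes, 11% were called higher and 9.52% lower, against 12 and 11 of the 61. The median log2 difference was 0.00 over the 61 and 0.01 over all genes.

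**Figure D3:**
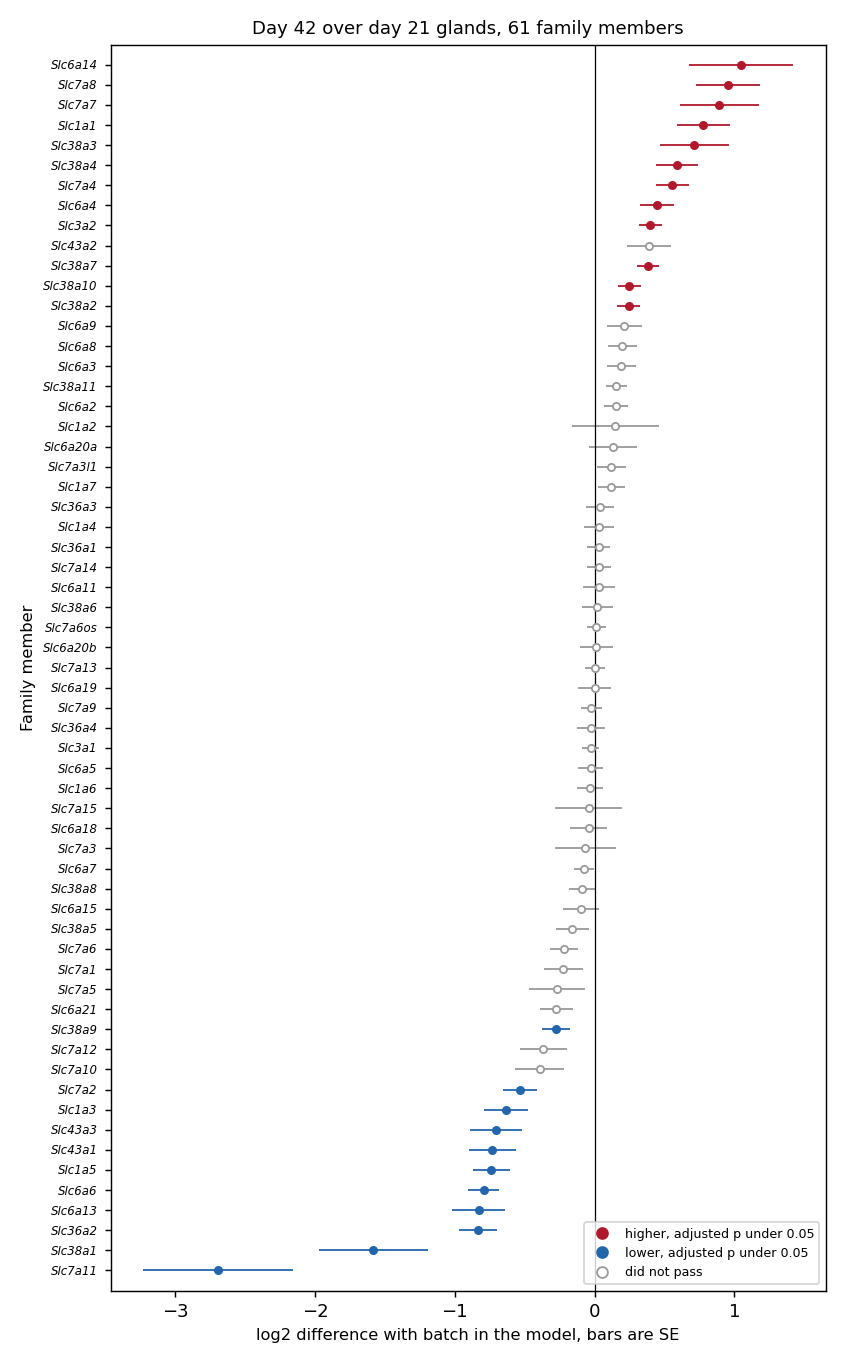
Log2 difference of day 42 (n = 5) over day 21 (n = 10) glands for each of the 61 genes, with batch in the model; bars are SE. Filled red points mark the 12 genes that rose, filled blue points the 11 that fell and open points those that did not pass, with Slc6a14 at 1.05 and Slc7a11 at -2.69 at the ends.

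Slc7a11, which imports cystine in exchange for glutamate and feeds glutathione synthesis, had 5.55, 5.38, 5.24, 5.34 and 6.51 in day 42 glands, against a lowest value of 6.52, a median of 8.65 and a highest of 9.39 in day 21 glands. The groups came close without overlap, and Slc7a11 fell by 2.69 ± 0.54 (6.47-fold, adjusted p = 0.000508). Slc38a1, a sodium-coupled glutamine carrier, had 7.82, 8.40, 8.14, 7.84 and 8.71 in day 42 glands, against 8.55, 10.02 and 10.75 (lowest, median, highest) in day 21 glands. One day 42 gland overlapped with the day 21 range, and Slc38a1 fell by 1.58 ± 0.39 (3.00-fold, adjusted p = 0.00358).

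Markers of lymphocytes and other cells differed between the same groups. The mean of 10 T cell markers was 6.886 to 8.237 (median 7.038) in day 42 glands and 6.957 to 10.428 (median 9.771) in day 21 glands, with 9 markers lower and 0 higher. All 7 B cell markers were lower too, with means of 6.674 to 8.518 (median 6.846) in day 42 glands and 6.735 to 9.826 (median 9.181) in day 21 glands. Of 8 endothelial markers 6 were lower and 0 higher, and of 8 Schwann cell and nerve markers 6 were lower and 1 higher, while 3 of 10 macrophage and 4 of 6 basal epithelium markers were higher and 0 lower. The part of the B cell, endothelial, Schwann cell, macrophage and basal markers in the differences was not tested. With the T cell mean as a covariate, a setting chosen after seeing the data, the difference was 0.03 for Slc38a1 (adjusted p = 0.954) and -0.56 for Slc7a11 (adjusted p = 0.309). Of the 23 calls, 10 passed under it.

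**Figure D4:**
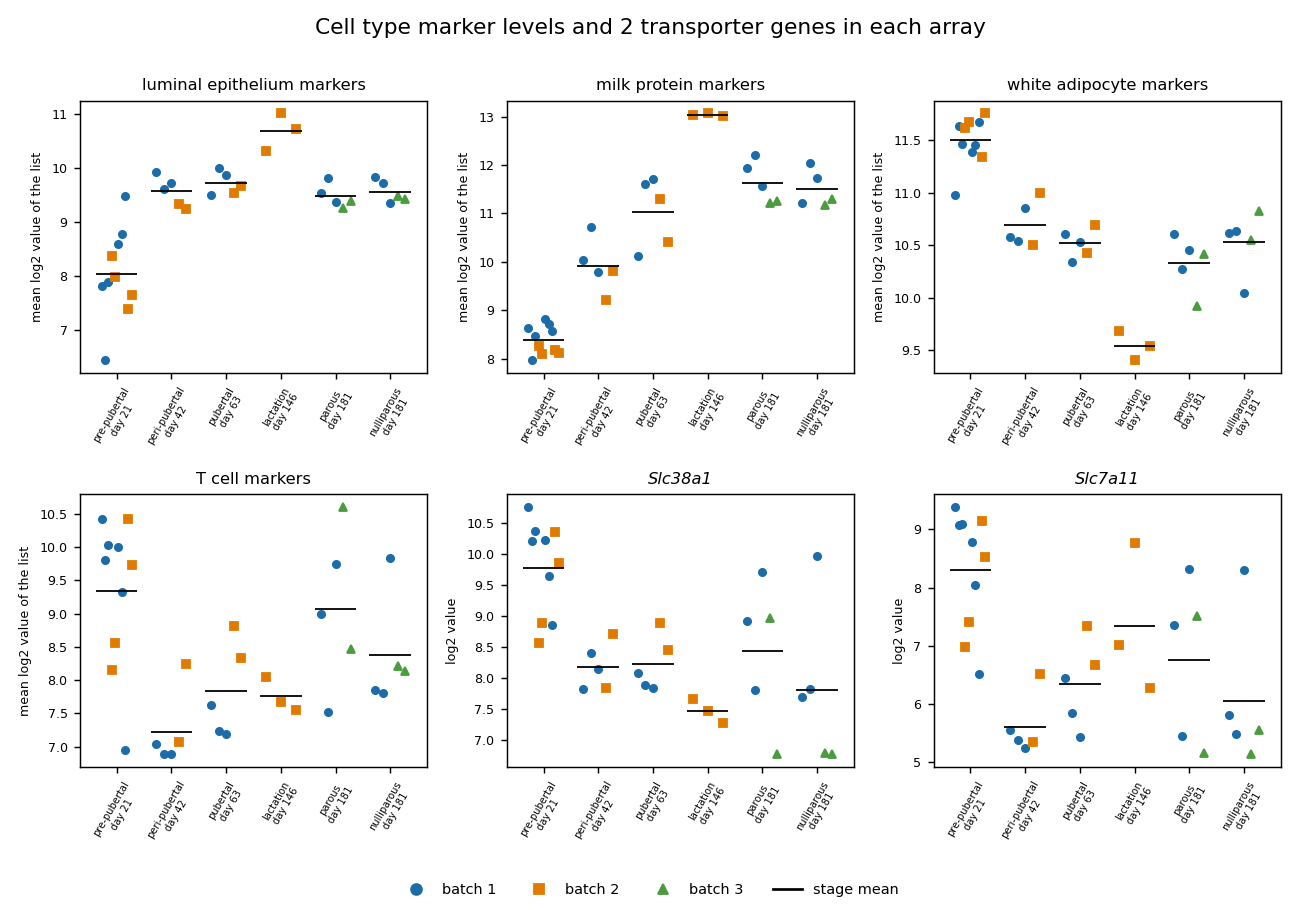
Mean log2 value of the marker lists of luminal epithelium, milk protein, white adipocytes and T cells, and log2 values of Slc38a1 and Slc7a11, in each of the 33 arrays by stage in order of age. Circles, squares and triangles mark batches 1, 2 and 3, and lines are stage means. Most day 21 arrays lie high for T cell markers, Slc38a1 and Slc7a11, and the lactating arrays lie lowest for adipocyte and highest for milk protein markers.

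Other genes that fell by day 42 were spread over the families. Slc6a6 had 10.42, 9.84, 9.93, 9.67 and 9.55 in day 42 glands, against 10.19, 10.73 and 10.96 (lowest, median, highest) in day 21 glands. With 1 day 42 array within the day 21 range, it fell by 0.79 ± 0.11 (adjusted p = 5.77e-06). Slc36a2 had 8.86, 9.64, 9.64, 9.05 and 9.71 in day 42 glands, against 9.82, 10.27 and 10.51 in day 21 glands, and fell without overlap by 0.83 ± 0.14 (adjusted p = 5.5e-05). Slc1a5 had 9.83, 10.45, 10.25, 9.47 and 10.07 in day 42 glands, against 10.28, 10.75 and 11.14 in day 21 glands, and fell by 0.74 ± 0.13 (adjusted p = 0.000139). Slc6a13, a GABA and taurine carrier known from liver and kidney, had 5.98, 5.92, 6.06, 6.60 and 6.38 in day 42 glands, against 6.53, 6.80 and 7.72 in day 21 glands, and fell by 0.83 ± 0.19 (adjusted p = 0.00201). Slc43a1, Slc43a3, Slc1a3 and Slc7a2 fell by 0.73, 0.70, 0.63 and 0.53. Slc38a9, the arginine sensor of the lysosome, was called lower by a log2 difference of -0.27 (adjusted p = 0.0486), a call that ended in 10 of the 15 refits that left out 1 array (adjusted p up to 0.132). Its difference was 0.02 with the T cell mean and 0.10 with the luminal mean as covariate.

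Among the rises, Slc6a14 had 9.41, 7.40, 8.56, 10.22 and 8.94 in day 42 glands, against 5.51, 8.19 and 9.53 in day 21 glands. The groups overlapped widely, and its rise of 1.05 ± 0.37 (adjusted p = 0.043) was lost in 9 of the 15 refits that left out 1 array, with adjusted p-values up to 0.173 (without day 42 replicate 1). Slc7a8, a light chain that exchanges small and large neutral amino acids, had 10.39, 8.68, 8.85, 9.42 and 8.45 in day 42 glands, against 7.78, 8.14 and 8.56 in day 21 glands, and rose by 0.96 ± 0.23 (adjusted p = 0.00279). Slc7a7, the light chain that exports cationic amino acids, had 8.75, 7.87, 9.62, 8.70 and 9.69 in day 42 glands, against 7.56, 8.09 and 8.46 in day 21 glands. It rose by 0.89 ± 0.28 (adjusted p = 0.0233), and the call ended without day 42 replicate 3 (adjusted p = 0.112) or 5 (0.113). Slc1a1 had 8.68, 7.76, 8.30, 8.04 and 7.85 in day 42 glands, against 6.65, 7.26 and 8.15 in day 21 glands, and rose by 0.78 ± 0.19 (adjusted p = 0.00326).

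Slc3a2 had 12.12, 11.52, 12.01, 10.95 and 11.05 in day 42 glands, against 10.46, 11.36 and 11.67 in day 21 glands, and rose by 0.40 ± 0.08 (adjusted p = 0.000795). Slc38a2 had 11.30, 10.90, 11.03, 10.98 and 11.22 in day 42 glands, against 10.66, 10.82 and 11.03 in day 21 glands, and rose by 0.24 ± 0.08 (adjusted p = 0.0353). The call of Slc38a2 ended in 8 of the 15 refits that left out 1 array, with adjusted p-values up to 0.153. Slc38a3 rose by 0.71 ± 0.25 (adjusted p = 0.039), a call that ended in 7 of the 15 refits, with 0.44 without day 42 replicate 2, its highest array (adjusted p = 0.226). Slc38a4, Slc7a4, Slc6a4, Slc38a7 and Slc38a10 rose by 0.59, 0.56, 0.45, 0.38 and 0.25, and the call of Slc38a10 ended without day 42 replicate 2, 3 or 4 (adjusted p = 0.0736, 0.0507 and 0.0774). The carriers Slc7a5 (-0.27 ± 0.20, adjusted p = 0.41), Slc1a4 (0.03 ± 0.11, adjusted p = 0.884) and Slc7a1 (-0.22 ± 0.14, adjusted p = 0.307) did not pass.

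Of the 23 calls, 17 stayed past the threshold whichever array was left out. Within batch 1 alone 13 of them passed and within batch 2 alone 1 did, and all 23 kept their direction in both. Without the muscle-rich arrays 13 passed, with differences of 0.45 for Slc6a14 (adjusted p = 0.593), 0.49 for Slc7a8 (adjusted p = 0.152) and -1.34 for Slc38a1 (adjusted p = 0.0922). In a fit with no batch term 12 passed. Luminal epithelium markers were higher at day 42, with 14 of 15 called and means of 9.246 to 9.927 in day 42 glands and 6.436 to 9.484 in day 21 glands, and 11 of 12 white adipocyte markers were called lower. With the luminal mean as a covariate, 3 of the 23 calls held, those of Slc36a2 (-0.75), Slc6a6 (-0.70) and Slc38a4 (0.91), while Slc1a1 stood at -0.01 and Slc6a14 at -0.69. The luminal mean overlapped little between these 2 stages, so this refit cannot tell luminal content and stage apart. Of the related lists, 0 of 19 tRNA synthetases passed. Among ATF4 response genes 4 rose and 4 fell, the serine synthesis genes Phgdh by -0.75 and Psat1 by -1.12 and the mTORC1 inhibitor Ddit4 by -1.69 on the log2 scale. Among the enzymes 4 rose and 6 fell, with the branched-chain aminotransferase Bcat2 lower by a log2 difference of -0.90 ± 0.12. Of the other carriers 3 rose and 3 fell, and of the mTORC1 sensing genes 2 rose and 3 fell.

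Day 63 was compared with day 42 to follow puberty itself. None of the 61 genes was called by limma's test, where 0.6% of all genes were. An unadjusted p under 0.05 was seen for 11 of them (18%), beside 10.9% of all genes. The smallest p-values were those of Slc3a2, with a difference of 0.37 ± 0.10 (adjusted p = 0.0762), Slc6a6 with 0.46 ± 0.13 (adjusted p = 0.0954) and Slc7a8 with 0.88 ± 0.26 (adjusted p = 0.135). Without day 42 replicate 1, which was rich in muscle RNA (mean of 8 muscle markers 9.664), 4 of the 61 genes were called. The share of all genes called in that refit is not given here.

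Nulliparous glands of day 181 were compared with pubertal glands to follow age without pregnancy. Over all genes, 1.1% were called higher and 1.17% lower, and of the 61 genes Slc6a6 rose and Slc43a1 fell. Slc43a1 had 7.67, 7.68, 6.89, 7.62 and 7.14 in nulliparous glands, against 8.88, 8.48, 8.43, 8.79 and 9.40 in pubertal glands. The groups did not overlap, and Slc43a1 fell by 1.04 ± 0.22 (2.06-fold, adjusted p = 0.00823), or by 0.83 without nulliparous replicate 3 (adjusted p = 0.0549). Slc6a6 had 11.24, 11.04, 10.78, 10.24 and 10.33 in nulliparous glands, against 10.30, 10.51, 10.49, 10.06 and 10.35 in pubertal glands. It rose by 0.52 ± 0.14 (adjusted p = 0.0452), and the call ended on leaving out nulliparous replicate 1, 2, 4 or 5 (adjusted p = 0.156, 0.125, 0.0544 and 0.0619) or pubertal replicate 1, 2, 3 or 4 (0.118, 0.0875, 0.106 and 0.0737).

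Parous and nulliparous glands of day 181, which share batches 1 and 3, were compared to see what a past pregnancy and lactation left. None of the 61 genes was called by limma's test, where 0.022% of all genes were. An unadjusted p under 0.05 was seen for 2 of them (3.28%), beside 6.04% of all genes. Slc43a1 had 8.28, 7.65, 8.29, 7.53 and 7.96 in parous glands, against 7.67, 7.68, 6.89, 7.62 and 7.14 in nulliparous glands, a difference of 0.54 ± 0.20 (adjusted p = 0.722). Slc38a4 had 6.60, 6.26, 6.67, 6.94 and 7.13 in parous glands, against 7.10, 7.09, 6.76, 7.27 and 7.61 in nulliparous glands, a difference of -0.45 ± 0.17 (adjusted p = 0.752). The groups overlapped for both genes. Slc1a4, with 8.51, 8.90, 8.58, 7.55 and 7.03 in parous glands and 8.70, 8.49, 8.19, 7.11 and 7.01 in nulliparous glands, showed the same split by batch in both.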

How the data were processed

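Biotin-labelled total RNA was measured on Affymetrix arrays that cover whole transcripts. The values the authors deposited are log2 intensities of 36685 probe sets, ranging between 2.405 and 14.228. RMA in Affymetrix Expression Console had corrected background, normalized the arrays and summarised the probes, per the submitters' processing notes. No software version or genome build is named there. Only the 18511 probe sets with exactly 1 gene symbol in the platform annotation were used; 575 named several genes and 17599 had no symbol listed. Where a gene had several (291 symbols), the probe set with the highest mean was kept. No array duplicated another. The number of arrays limits the precision.

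Per gene, limma 3.58.1 in R 4.3.3 fitted stage and batch over all 33 arrays (25 residual degrees of freedom), with moderated variances and an intensity trend, without a filter on low values so that every transporter gene was tested. All tests were two-sided, with Benjamini-Hochberg adjustment over 18166 genes and a threshold of 0.05. Stage, batch and kit came from the labels, and replicates were numbered in the order of the record. Values in every array are given for genes called with a log2 difference of at least 1, the 3 largest in each direction per comparison and a fixed panel of 11 genes. The transporter families, the pathway and marker lists and this rule were chosen with earlier results of these data known. Promoters came from a RefSeq table (GRCr8). Alternatives covered the batch term, normalization, filter, probe sets, variance model, array weights, threshold, arrays used, covariates and comparator. Figures were drawn with matplotlib 3.10.9.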

Additional observations from a re-analysis of the deposited data

Results flagged for a closer look

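Within each group of 5 or 10 arrays, the highest or lowest value was set against its nearest neighbour, and 8 of 120 groups over 24 genes had an array that stood apart, where chance alone gives about 1 in 20, or 6. Of these, 3 were in batch 3. Slc1a5 was 9.44 in nulliparous replicate 4, with the next lowest array at 10.0. Slc36a2 was 7.6 in parous replicate 4, with the next lowest at 8.3, and Slc6a14 was 7.77 in parous replicate 5, with the next highest at 6.92. At day 42, Slc7a1 was 8.29 in replicate 4 with the next lowest at 8.6, Slc7a2 was 9.06 in replicate 5 with the next lowest at 9.52, and Slc7a11 was 6.51 in replicate 5 with the next highest at 5.55. Slc7a15 was 8.3 in pubertal replicate 1, with the next highest at 7.92. Slc7a11 was 8.31 in nulliparous replicate 3, with the next highest at 5.8; the mean of the T cell markers was 9.838 in that array, the highest of the nulliparous glands, and its part in the value was not tested.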

How the results depend on the processing

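The counts of transporter genes called moved by over 1.5 times under the following settings. Without a batch term they were 12 at day 42 over day 21 and 17 in lactating over pubertal glands; of 75 calls over all comparisons, 43 passed, 29 did not and 3 turned, Slc3a2 in lactating over pubertal glands (-0.14) and, in parous over lactating glands, Slc36a4 (-0.12) and Slc7a6os (0.032). With array weights, 7 were called at day 63 over day 42 and 10 in nulliparous over pubertal glands. With the luminal mean as a covariate the counts were 3 at day 42 over day 21, where Slc1a1 (-0.015), Slc38a9 (0.10) and Slc6a14 (-0.69) turned, and 4 in nulliparous over pubertal glands. With the T cell mean, added after seeing the data, they were 12 at day 42, where Slc38a1 (0.029) and Slc38a9 (0.018) turned, and 1 at day 63. Without the muscle-rich arrays, also added later, they were 13 at day 42 and 4 at day 63. Within batch 1 alone 13 and within batch 2 alone 1 were called at day 42. In nulliparous over pubertal glands 1 was called, Slc43a1, at an adjusted p under 0.01, without batch 3 and within batch 1. With only the groups compared 1 other gene was called there, and neither Slc43a1 (adjusted p = 0.058) nor Slc6a6 (0.062) passed. The cause of these shifts was not tested, though single batches hold fewer arrays. The shares of all genes called under these settings are not given here, so the shifts cannot be read as particular to the transporter genes.

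Leaving out each array in turn gave counts of 18 to 24 at day 42 over day 21, 0 to 4 at day 63 over day 42, 1 to 2 in nulliparous over pubertal, 23 to 29 in lactating over pubertal, 19 to 25 in parous over lactating and 0 to 0 in parous over nulliparous glands, and 34 to 39 genes differed between stages. Of 765 such repeats of a call, 687 passed and 0 turned. The count above the median stayed at 33 under every setting tried. A filter for at least 3 arrays above the median left 10986 genes and 67 of the 75 calls, and all 67 held. The calls on genes it removed, among them those of Slc7a3, were not tested under it. A fit of only the groups compared could not be made for parous over lactating glands, which share no batch. No paired analysis was possible because the labels give no number that links arrays of different stages. Low intensities, with no detection calls, limit what can be said of the 23 genes below the median in all arrays. Among these are Slc6a19, Slc6a20a, Slc1a7 and Slc38a11, which were called in lactating over pubertal glands. Slc7a3, also called there, was above the median in 1 array.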
